A study of Macaca mulatta with 12 samples.

Results

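The IGHV3 genes are the family of immunoglobulin heavy chain variable (V) genes whose names begin with IGHV3. They were described here across the B cell subtypes of the blood of 6 rhesus macaques. A heavy chain was taken as IGHV3 when the cell held exactly 1 productive heavy chain contig, an assembled B cell receptor (BCR) transcript, and the V gene named for that contig began with IGHV3. By that rule 3618 of 10406 annotated B cells were IGHV3 cells. Cells of 1 animal with the same V gene, J gene and CDR3 nucleotide sequence were counted as 1 clone, which gave 3562 IGHV3 clones among 10268 clones, or 34.7%. The clones carried 43 IGHV3 genes of the 102 IGHV genes seen. Clones, not cells, are counted throughout, so that an expanded clone counts once in a subtype.

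All 6 animals were juveniles of Indian origin, 2 to 3 years old, healthy and without any manipulation or treatment. Batch 1 held both males and batch 2 the 4 females, and the effects of sex and batch cannot be told apart. Each animal gave a 5' gene expression library and a BCR library from peripheral blood mononuclear cells, 12 libraries in all. The subtypes are the authors' annotation of the expression data, with 12 names used as deposited and without expanding their abbreviations.

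A heavy chain variable region is joined from a V, a D and a J gene segment during B cell development, and the CDR3 loop forms at the junction. The CDR1 and CDR2 loops are encoded by the V gene itself, so the choice of V gene fixes them until somatic mutation changes them. By number of genes, IGHV3 is the largest IGHV family in macaques and humans. Each heavy chain pairs with a kappa or a lambda light chain, and class switching replaces the IgM and IgD constant regions by IgG, IgA or IgE.

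The stretch from CDR1 to CDR2 is printed for the genes on which the results turn. Each sequence was carried by several unswitched clones of an animal, is the most common form of its gene unless forms are numbered, and is read 5′ to 3′ on the coding strand. Capitals mark CDR1, the first 21 bases, and CDR2, the last 15 to 24 bases. IGHV3-116, IGHV3-38, IGHV3-30, IGHV3-37 and IGHV3-178 are shown because they were used more in M-MZL BC or Activated B cells than in Naive B cells 1, and IGHV3-115 because it was used less. The printed sequence of IGHV3-38 rests on 5 clones of female 1, that of IGHV3-37 on 9 of male 1 and that of IGHV3-115 on 6 of female 3. What other animals carried under these 3 names is not shown. IGHV3-103 and IGHV3-182 were the most used genes, IGHV3-54 is shown for its long CDR3s, and IGHV3S51 and IGHV3-124 for their uneven spread over animals and subtypes. Forms not printed are form 2 of IGHV3-182, in 44 clones of females 1 and 4 and male 2, of IGHV3-30 in 8 clones and of IGHV3-124 in 5, and form 3 of IGHV3-103 in 35 clones of female 3.
IGHV3-116, form 1: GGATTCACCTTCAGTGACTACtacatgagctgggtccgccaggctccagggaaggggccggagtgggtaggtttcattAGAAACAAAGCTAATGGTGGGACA
IGHV3-116, form 2: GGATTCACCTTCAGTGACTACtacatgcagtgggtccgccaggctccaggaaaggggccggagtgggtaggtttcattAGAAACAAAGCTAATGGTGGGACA
IGHV3-38: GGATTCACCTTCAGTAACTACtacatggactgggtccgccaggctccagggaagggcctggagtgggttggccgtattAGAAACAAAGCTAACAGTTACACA
IGHV3-30: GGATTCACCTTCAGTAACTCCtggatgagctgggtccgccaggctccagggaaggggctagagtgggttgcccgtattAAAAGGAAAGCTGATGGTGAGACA
IGHV3-37: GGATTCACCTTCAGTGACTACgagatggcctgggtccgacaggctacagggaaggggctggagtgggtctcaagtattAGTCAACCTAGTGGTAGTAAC
IGHV3-178: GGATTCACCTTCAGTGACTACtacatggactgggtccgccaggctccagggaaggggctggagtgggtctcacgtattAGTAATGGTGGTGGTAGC
IGHV3-115: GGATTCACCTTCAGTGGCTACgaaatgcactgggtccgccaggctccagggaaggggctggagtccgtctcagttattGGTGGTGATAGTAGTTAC
IGHV3-103, form 1: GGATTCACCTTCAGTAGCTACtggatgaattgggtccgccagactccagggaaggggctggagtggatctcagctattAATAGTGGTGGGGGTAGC
IGHV3-103, form 2: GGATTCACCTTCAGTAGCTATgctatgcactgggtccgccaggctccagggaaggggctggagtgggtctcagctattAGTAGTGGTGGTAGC
IGHV3-182: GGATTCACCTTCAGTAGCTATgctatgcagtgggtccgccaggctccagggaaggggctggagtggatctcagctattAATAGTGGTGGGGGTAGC
IGHV3-54: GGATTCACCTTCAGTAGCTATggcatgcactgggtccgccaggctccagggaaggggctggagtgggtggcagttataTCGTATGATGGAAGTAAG
IGHV3S51, form 1: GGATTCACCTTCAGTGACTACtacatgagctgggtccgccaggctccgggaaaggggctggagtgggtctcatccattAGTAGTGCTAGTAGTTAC
IGHV3S51, form 2: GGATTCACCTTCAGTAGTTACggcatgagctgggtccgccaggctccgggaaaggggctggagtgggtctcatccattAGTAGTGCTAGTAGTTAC
IGHV3-124: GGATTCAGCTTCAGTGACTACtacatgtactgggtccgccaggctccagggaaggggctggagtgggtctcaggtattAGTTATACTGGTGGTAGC

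Form 1 of IGHV3-116 was carried by 53 clones of female 3 and male 1, and form 2 by 32 clones of female 1, female 3 and male 2. They differed at 4 bases outside CDR1 and CDR2, A28C, G29A, C30G and G51A, counted from the first printed base, with the base of form 1 first. The 2 forms of IGHV3S51 came from different animals, form 1 from female 3 and form 2 from female 2, and differed by G16A, A17G, C18T, T22G and A23G. IGHV3-116, IGHV3-38 and IGHV3-30 shared a CDR2 of 24 bases, which was the usual length in 13 of the 42 IGHV3 genes that had clones in the standard region layout. The most common length was 18 bases, in 22 genes, IGHV3-178 and IGHV3-115 among them, and IGHV3-37 had 21. IGHV3-103 was counted at 15 bases, from 149 of its 158 clones in that layout, although its printed form 1 had 18. Genes of the family are close to each other, which limits naming. The common sequences nearest to each other differed by 12 of 270 bases between IGHV3-116 and IGHV3-184 and by 4 between IGHV3-178 and IGHV3-59. Between IGHV3-103 and IGHV3-182, the most used genes, the nearest differed by 11. Within IGHV3-103 itself common sequences differed by up to 113 bases, and its printed forms had CDR2s of 18 and 15 bases. Of 3226 IGHV3 cells whose gene had a common sequence in the animal, 3205 were nearest to a common sequence of the gene they were named for. For IGHV3-116 it was 374 of 374 and for IGHV3-103 463 of 477. The common sequences were grouped by the same deposited gene names, so these counts cannot test the names themselves.

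The BCR libraries held 28676 contigs of 15041 barcodes, with 90188 to 399588 UMIs (unique molecular identifiers, counts of captured transcripts) per library. The median IGHV3 contig had 10 UMIs, as did the median contig of the other families. Of the barcodes, 111 occurred in more than 1 library, and 0 of these had the same heavy CDR3. The B cell gene MS4A1 was detected in the IGHV3 cells of the subtypes, at means of 535 to 1375 CPM (counts scaled to the same library total). TCL1A, a gene of naive B cells, was at 86.9 CPM ± 65.9 (SD) in Naive B cells 1, and ITGAX, which encodes CD11c, reached 658 to 794 CPM in the CD11c+ subtypes against 6.02 in Naive B cells 1. Over all cells, median ITGAX was 553 and 685 CPM in the CD11c+ subtypes. It was 393 in Naive B cells 2, 205 in M-MBC 1 and M-MBC 2, 201 in C-MBC 1 and 93.5 or less elsewhere. The summed naive genes TCL1A, FCER2 and IL4R had a median of 769 CPM in Naive B cells 1 but 112 in Naive B cells 2. These markers go against the name Naive B cells 2, which is used as deposited. Of the 25 markers listed, CD27 alone was not in the count table used here. The summed level of the 3 T cell genes CD3D, CD3E and CD3G ran from 45.0 to 149.5 CPM over animals in M-MZL BC and from 11.3 to 118.5 in Naive B cells 1. That of the NK genes NKG7 and GNLY ran from 2.06 to 209.8 and from 5.35 to 40.1, against 3403 to 6037 for the B cell list in M-MZL BC. Their part in the results below was not tested.

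The 10 most used genes held 2494 of the 3562 clones (70.0%). IGHV3-103 led with 473 clones (13.3%), followed by IGHV3-182 with 405 (11.4%) and IGHV3-116 with 385 (10.8%). IGHV3-178 had 210 clones, IGHV3-54 208, IGHV3-136 182, IGHV3-184 180, IGHV3-118 160, IGHV3-30 155 and IGHV3-100 136. The other 33 genes shared the rest, and 16 genes with 99 clones in all were too rare to test. IGHV3 clones made up 34.8%, 32.7%, 32.2% and 35.1% of all clones in females 1 to 4, and 36.7% and 36.3% in males 1 and 2, so the family as a whole was used almost alike.

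Single genes ranged more widely over animals. IGHV3-116 made up 3.11%, 1.03%, 3.41% and 1.07% of the clones of females 1 to 4, and 6.87% and 3.63% of those of males 1 and 2. IGHV3-54 was at 1.07% to 3.68% in 5 animals and at 0.188% (4 clones) in male 1, who also had 0 clones of IGHV3-136, which was found in the other 5 animals at 0.767% to 3.64%. IGHV3-124 had 62 clones in female 3 and 53 in male 1, but 10 in female 1, 1 in female 4 and 0 in female 2 and male 2. IGHV3S51 had 26 clones in female 2 and 38 in female 3 and 0 in the other 4. By contrast, the shares of IGHV3-103 (2.98% to 5.97%) and IGHV3-182 (2.69% to 5.80%) lay within about the same range in all 6. Of the 43 genes, 15 were seen in every animal and 5 in a single animal.

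**Figure D1:**
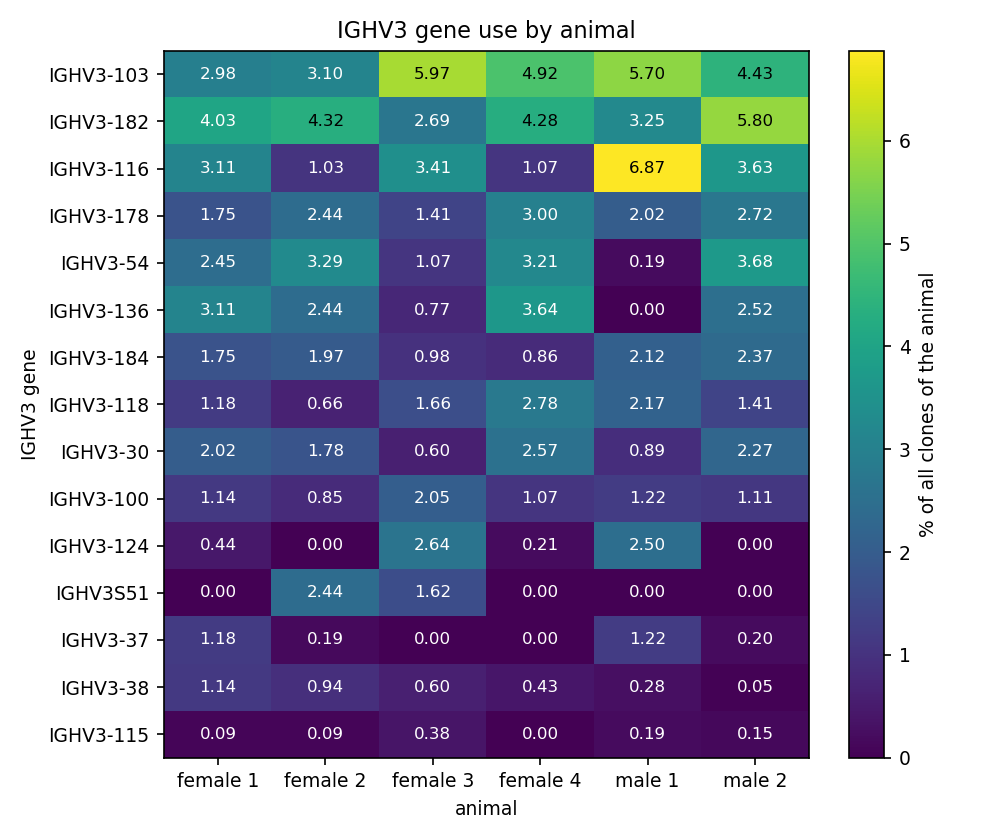
Percent of all clones of each animal (columns, 6 animals) that carried each named IGHV3 gene (rows), with the value printed in each cell and shown by colour. IGHV3-116 ranges from 1.03% to 6.87%, and IGHV3S51 is above 0 in females 2 and 3 alone.

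Of the subtypes, M-MZL BC had the highest mean IGHV3 share. In females 1 to 4, IGHV3 clones were 44.3%, 38.6%, 47.0% and 52.5% of M-MZL BC clones, and in both males 47.9%. In Naive B cells 1 the shares were 28.1%, 22.5%, 26.7% and 30.3% in the females and 29.98% and 29.9% in the males. Every animal's M-MZL BC share lay above every animal's naive share, with means of 46.4% ± 4.63 and 27.9% ± 3.01 (SD, n = 6). A sum over the family was given no test, so these are descriptions.

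Activated B cells had a mean IGHV3 share of 41.0% ± 10.98 and M-MBC 2 one of 37.9% ± 10.9 (n = 5 each), with 1 low animal apiece, female 2 at 21.7% and female 3 at 20.4%. M-MBC 1 at 30.4% ± 4.98, CD11c+ MBC 1 at 28.6% ± 5.77, CD11c+ MBC 2 at 31.7% ± 5.51 and C-MBC 1 at 32.3% ± 3.41 (n = 6 each) lay nearer to the naive cells. The mean of C-MBC 2, 36.2% ± 9.20 (n = 5), lay nearer to that of M-MBC 2. With IGHV3-116 taken out of the numerator, the share was still 39.3% ± 5.79 in M-MZL BC (35.02% in the lowest animal) against 26.3% ± 3.36 in Naive B cells 1 (30.3% in the highest), again without overlap. Naive B cells 2 (19 of 74 clones) and Naive B cells 3 (6 of 29) were too small to show a difference. So were antibody-secreting cells, at 9 of 32 clones, or 28.1%, with an exact 95% binomial interval from 13.8% to 46.8% that covers counting error only.

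**Figure D2:**
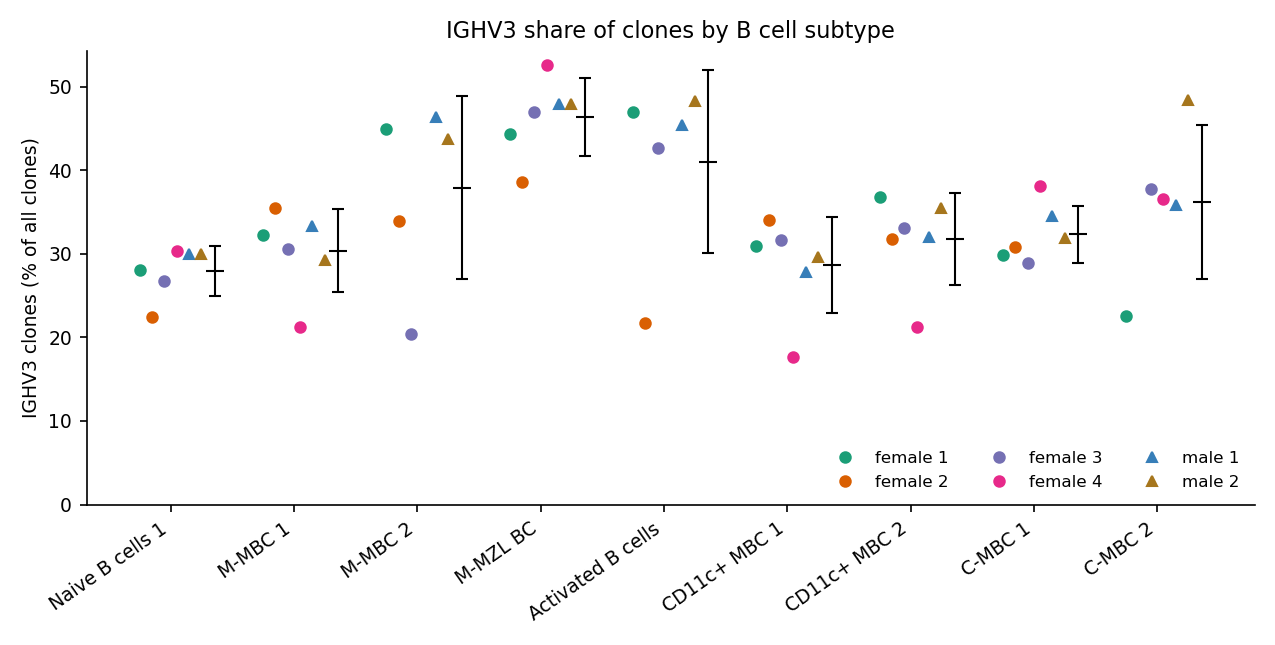
IGHV3 clones as a percent of all clones (y axis) in 9 B cell subtypes (x axis), 1 point per animal with at least 30 clones, circles for females and triangles for males, with the mean and SD beside them. The 6 M-MZL BC values run from 38.6% to 52.5% and those of Naive B cells 1 from 22.5% to 30.3%.

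Each subtype was then compared with Naive B cells 1, gene by gene. Clone counts of 73 IGHV genes, 27 of them IGHV3, were fitted in 51 sums of 33 to 567 clones, each sum an animal and a subtype, with the animal as a block (edgeR quasi-likelihood test). A gene was called at an adjusted p under 0.05, adjusted by Benjamini-Hochberg over the 73 genes of a comparison. In the 8 comparisons, 9 of 216 IGHV3 tests were called, 8 higher and 1 lower, in 6 genes. Over all families 25 of 584 tests were called, about the same rate. These calls were 10 higher and 15 lower, a split that became 4 higher and 18 lower with TMM scaling, a scaling that centres the genes. TMM lowered the median log2 difference by 0.63 in C-MBC 2, 0.38 in M-MBC 2, 0.34 in Activated B cells, 0.23 in CD11c+ MBC 2, 0.21 in C-MBC 1, 0.13 in M-MBC 1, 0.11 in M-MZL BC and 0.021 in CD11c+ MBC 1, and it left 5 IGHV3 calls, 4 of them higher.

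In M-MZL BC, 3 of 27 IGHV3 genes rose and 1 fell, beside 16.4% of all 73 genes called. IGHV3-116 and IGHV3-178 rose in most animals, IGHV3-38 rose from very few clones, and IGHV3-115 fell. The median log2 difference was 0.44 over the 27 IGHV3 genes, 17 of them above 0, against -0.11 over all 73, 30 of them above 0. Of the other families, 0 genes rose and 8 fell. Each value is a share of all clones, so these falls and the IGHV3 rises are not independent, here or in other subtypes.

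In Activated B cells, 4 IGHV3 genes rose and 0 fell, IGHV3-116, IGHV3-38, IGHV3-30 and IGHV3-37, with 13.7% of all genes called. The IGHV3 median was 0.13 against -0.36 over all genes, and 6 genes of the other families fell. In M-MBC 2, IGHV3-116 alone rose, and it was the only gene of any family called (1.37%). M-MBC 1 and CD11c+ MBC 1 had 1 gene called each (1.37%), of another family, and CD11c+ MBC 2, C-MBC 1 and C-MBC 2 had 0. Among the 27 IGHV3 genes an unadjusted p under 0.05 was reached in these by 4 in M-MBC 1, 3 in CD11c+ MBC 1, 3 in CD11c+ MBC 2, 5 in C-MBC 1 and 2 in C-MBC 2, and DESeq2 called 0 as well. Over all 73 genes it was reached by 6, 6, 7, 10 and 6 in the same order.

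IGHV3-116 carried the clearest difference. It made up 9.28%, 3.41%, 7.07% and 2.54% of M-MZL BC clones in females 1 to 4, and 12.6% and 7.44% in males 1 and 2. In Naive B cells 1 it was at 1.65%, 1.12%, 2.64% and 0% in the females and 3.89% and 0.34% in the males. It was higher in M-MZL BC in 6 of 6 animals, although the group ranges overlap because male 1 was high and female 4 low in both. The log2 difference was 2.05 ± 0.32 (SE), with an adjusted p of 7.3e-09 by edgeR. Within the females of batch 2 it was 1.97 (adjusted p 0.0111) and within the males of batch 1 2.07 (adjusted p 2.9e-07).

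IGHV3-116 was also used more in Activated B cells and M-MBC 2. Its share of Activated B cell clones was 8.70%, 0% and 10.1% in females 1 to 3 and 10.3% and 4.58% in males 1 and 2, higher than naive in 4 of 5 animals, with a log2 difference of 1.77 ± 0.38 (adjusted p 0.00019 by edgeR). Its share of M-MBC 2 clones was 3.49%, 1.61% and 6.45% in females 1 to 3 and 11.3% and 9.44% in males 1 and 2, higher in 5 of 5 animals (1.78 ± 0.37, adjusted p 0.00015). Female 4 had too few clones of these subtypes to enter. The M-MBC 2 call was lost without male 2, where the difference was 1.21 (adjusted p 0.27). It was also lost in batch 2 alone, which holds neither male, at 1.06 (adjusted p 0.43).

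In the remaining subtypes IGHV3-116 stayed near its naive mean of 1.61% ± 1.46. It was at 1.63% ± 1.05 in CD11c+ MBC 1, 1.78% ± 1.43 in M-MBC 1, 2.14% ± 1.79 in CD11c+ MBC 2, 2.50% ± 2.79 in C-MBC 2 and 2.68% ± 1.82 in C-MBC 1. The means of M-MZL BC, Activated B cells and M-MBC 2 were 7.07% ± 3.74, 6.75% ± 4.42 and 6.47% ± 4.03. Among all 36 pairs of subtypes, compared after these values were seen and adjusted within each pair but not over pairs, 16 pairs differed in IGHV3-116, each of them with M-MZL BC, Activated B cells or M-MBC 2 as the higher member. Against M-MZL BC the genes called made up 8.22% of 73 for CD11c+ MBC 1 and for M-MBC 1, 5.48% for CD11c+ MBC 2 and for C-MBC 1 and 2.74% for C-MBC 2. Against Activated B cells they made up 8.22% for CD11c+ MBC 1, 6.85% for CD11c+ MBC 2, 5.48% for C-MBC 1 and 4.11% for M-MBC 1. Against M-MBC 2 they made up 2.74% for CD11c+ MBC 1, for CD11c+ MBC 2 and for C-MBC 1, and 1.37% for M-MBC 1. M-MZL BC exceeded CD11c+ MBC 1 in IGHV3-116 by 2.00 ± 0.31 and C-MBC 1 by 1.58 ± 0.36 on the log2 scale (adjusted p 5.7e-09 and 0.00026 by edgeR). In the pairs formed by M-MZL BC, Activated B cells and M-MBC 2 themselves 0 of 73 genes were called. There IGHV3-116 differed by -0.28 ± 0.30 (Activated B cells minus M-MZL BC), -0.27 ± 0.30 (M-MBC 2 minus M-MZL BC) and -0.01 ± 0.31 (Activated B cells minus M-MBC 2), which does not show that these subtypes are alike.

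**Figure D3:**
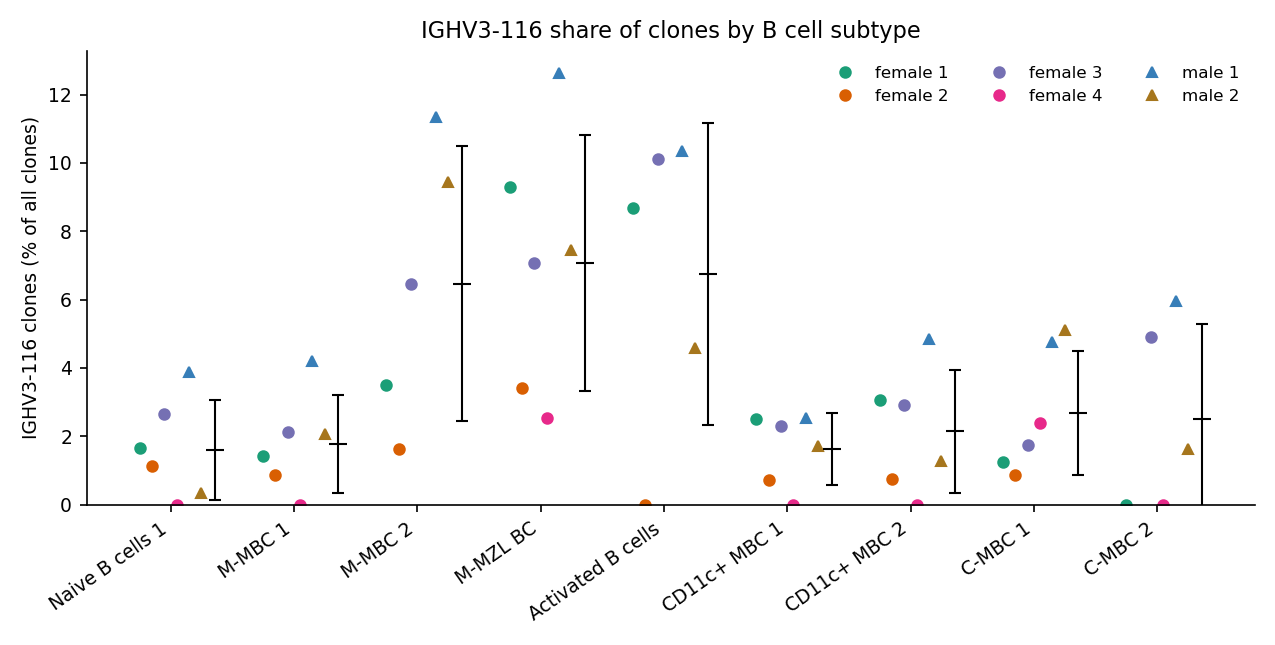
IGHV3-116 clones as a percent of all clones (y axis) in 9 subtypes (x axis), 1 point per animal with at least 30 clones, circles for females and triangles for males, with the mean and SD beside them. Activated B cells, M-MZL BC and M-MBC 2 have means of 6.47% to 7.07% and the other subtypes 1.61% to 2.68%.

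Clones of IGHV3-116 were next divided by the length of the V region, because animals differed in it. The deposited V regions of this gene were 294 bases long in 206 clones, as in form 1, 291 bases in 69 clones and 288 in 110, with form 2 found at both of the last lengths. In male 1 clones with 294 bases made up 3.89% of Naive B cells 1 clones and 11.9% of M-MZL BC clones. In male 2 clones with 288 bases made up 0.34% and 7.44%, and in female 1 clones with 291 bases made up 0.826% and 6.33%. Each length was thus more frequent in M-MZL BC in the animal named, with 2 naive clones behind the 291-base value and 1 behind the 288-base value. Where the deposited region boundaries lay differed between lengths, so length is used here only as a label.

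IGHV3-116 clones of M-MZL BC were also compared with naive ones in what the gene name does not fix. The 124 clones of M-MZL BC had a mean CDR3 length of 15.1 amino acids, and 69 of the 105 with a single light chain were kappa (65.7%). The 31 naive clones had a mean of 16.1 and 14 of 28 were kappa (50%). The V region was free of differences from a common sequence in 30 of 30 naive clones and in 9 of 113 M-MZL BC clones (8.0%), whose mean was 2.15 differences per 100 bases. Only 1 of 124 M-MZL BC clones was class-switched. The other IGHV3 clones of M-MZL BC had a mean CDR3 of 14.7, 56.0% kappa and a mean of 2.23 differences per 100 bases. Of these, 67 of 432 (15.5%) were free of differences and 21 of 522 (4.02%) were switched, against 8.0% and 0.81% of the IGHV3-116 clones. The IGHV3-116 clones of all subtypes were paired with 71 different light chain V genes in 348 clones, led by IGKV1-22 (26 clones) and IGKV2-65 (25). These are descriptions over clones pooled from animals.

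IGHV3-38 rose in both Activated B cells and M-MZL BC, from a level close to the detection limit. It was found in 1.74%, 2.17%, 4.49%, 1.15% and 0% of the Activated B cell clones of females 1, 2 and 3 and males 1 and 2. Naive B cells 1 held 2 IGHV3-38 clones of 1454 in all, against 9 of 664 in Activated B cells, a ratio of 9.85 with an exact 95% interval from 2.04 to 93.7, and 11 of 1378 in M-MZL BC, a ratio of 5.80 (1.27 to 53.9). These intervals cover counting error only, and the animals overlap at 0. The fitted log2 differences were 2.95 ± 0.83 (adjusted p 0.0090, 4 of 5 animals higher) and 2.15 ± 0.79 (adjusted p 0.046, 3 of 6 higher) by edgeR. Without female 3 the first was 2.04 (adjusted p 0.18) and the second 1.25 (adjusted p 0.41), and neither was called. The M-MZL BC call was also lost without female 2, female 4, male 1 or male 2 (log2 2.06 to 2.22, adjusted p 0.0506 to 0.14). Of the 20 alternatives of the closing section that tested IGHV3-38, the M-MZL BC call was kept in 7 and the Activated B cells call in 17.

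IGHV3-30 rose in Activated B cells, though not in every animal. It made up 8.70%, 2.17%, 2.25%, 0.575% and 5.42% of Activated B cell clones in females 1 to 3 and males 1 and 2, against 1.65%, 2.25%, 0.330%, 0.686% and 2.04% of their naive clones. Female 1 and male 2 stood well above their naive values, and 2 of the 5 animals lay below theirs. The log2 difference was 1.72 ± 0.51, with an adjusted p of 0.0098 by edgeR. The call was lost in 7 of the 22 alternatives of the closing section. Among them were the fits without female 1 (log2 1.39, adjusted p 0.20), without male 2 (1.84, 0.051) and with TMM scaling (1.33, 0.11). IGHV3-30 was also higher in Activated B cells than in M-MBC 1 (1.55 ± 0.47, adjusted p 0.024), CD11c+ MBC 1, CD11c+ MBC 2 and C-MBC 1, in pairs compared after the values were seen.

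IGHV3-37, IGHV3-178 and IGHV3-115 lay near the threshold. IGHV3-37 was at 1.74%, 0%, 0%, 2.87% and 0.833% of Activated B cell clones in females 1 to 3 and males 1 and 2 and at 0.413%, 0%, 0%, 0.686% and 0% of the naive clones (log2 2.09 ± 0.76, adjusted p 0.044). IGHV3-178 was at 1.69%, 4.55%, 3.54%, 4.24%, 3.26% and 4.65% of M-MZL BC clones and at 1.65%, 1.12%, 0.330%, 4.49%, 1.37% and 2.04% of naive clones in females 1 to 4 and males 1 and 2 (log2 1.12 ± 0.41, adjusted p 0.046, 5 of 6 higher). IGHV3-115 fell, from 7 of 1454 naive clones in 3 animals to 0 of 1378 in M-MZL BC (adjusted p 0.043). The naive share was 2.21-fold the floor of 3 clones over the M-MZL BC group, with counting error in the 7 clones left out. Of the alternatives in the closing section, the call was kept in 9 of 22 for IGHV3-37, 8 of 22 for IGHV3-178 and 5 of 10 for IGHV3-115. That of IGHV3-37 was lost without female 1, male 1 or male 2 (adjusted p 0.15, 0.22 and 0.19), that of IGHV3-178 without any 1 animal but female 4 (0.071 to 0.17) and that of IGHV3-115 without female 4 (0.0506). The adjusted p-values of this paragraph are by edgeR.

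**Figure D4:**
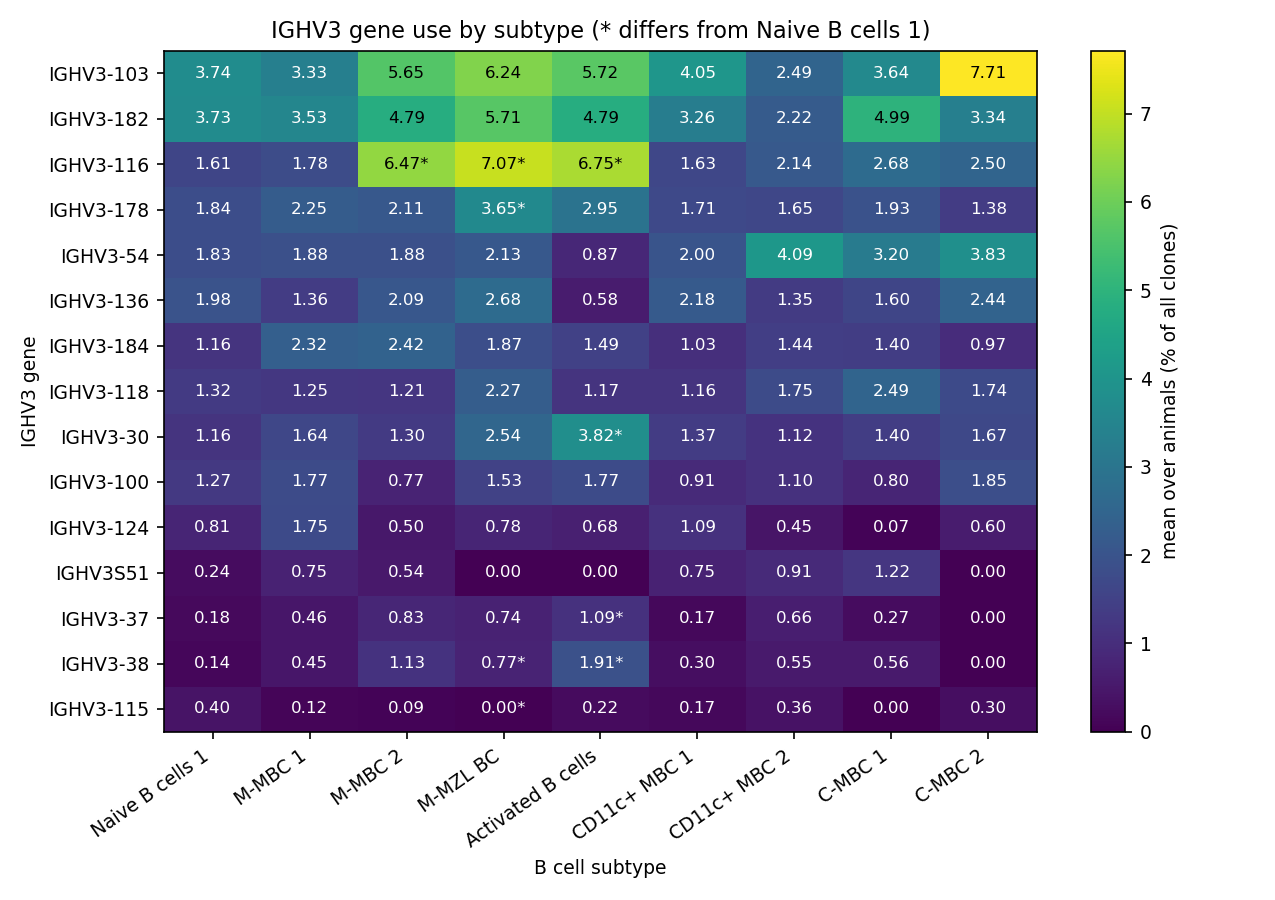
Mean percent of clones over animals (value and colour of each cell) for each named IGHV3 gene (rows) in 9 subtypes (columns), with a star where the gene was called against Naive B cells 1. IGHV3-116 is starred in Activated B cells, M-MZL BC and M-MBC 2, at 6.75%, 7.07% and 6.47%.

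When the subtypes were tested together for any difference, 7 of 27 IGHV3 genes were called, with 17.8% of all 73 genes. IGHV3-116 had an adjusted p of 3.2e-15, IGHV3S51 0.0064, IGHV3-103 and IGHV3-124 0.0073, IGHV3-38 0.015, IGHV3-37 0.016 and IGHV3-30 0.033 (edgeR). DESeq2 called 1 IGHV3 gene here, and TMM scaling left 4. IGHV3-116 kept its call in 22 of 22 alternatives. The call was lost in 6 of 21 for IGHV3S51, 6 of 22 for IGHV3-124, 8 of 22 for IGHV3-103, 7 of 20 for IGHV3-38, 9 of 22 for IGHV3-37 and 10 of 22 for IGHV3-30. Among these, single animals ended the calls of IGHV3S51 (adjusted p 0.100 without female 2, 0.476 without female 3), IGHV3-124 (0.597 without female 3), IGHV3-103 (0.173 without male 2) and IGHV3-38 (0.426 without female 3, 0.0922 without male 1). They also ended those of IGHV3-37 (0.246 without female 1, 0.112 without male 1, 0.120 without male 2) and IGHV3-30 (0.598 without female 1, 0.0643 without female 4, 0.216 without male 2). IGHV3-103, the most used gene, was at 6.24% ± 2.52 of M-MZL BC clones and 3.33% ± 1.46 of M-MBC 1 clones (n = 6), and this pair differed by 0.79 ± 0.28 on the log2 scale (adjusted p 0.0496). The other 6 of the 10 most used genes, IGHV3-182, IGHV3-54, IGHV3-136, IGHV3-184, IGHV3-118 and IGHV3-100, were called in no comparison with Naive B cells 1 and not in this test. IGHV3-182, for example, averaged 3.73% ± 0.83 in Naive B cells 1, 5.71% ± 2.47 in M-MZL BC and 2.22% ± 1.79 in CD11c+ MBC 2.

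IGHV3S51 and IGHV3-124 were singled out after their values were seen. In females 2 and 3, the carriers of IGHV3S51, it was found in 0 of 286 M-MZL BC clones (exact 95% interval up to 1.28%). It was found in 0 of 135 Activated B cell clones (up to 2.70%). In C-MBC 1 it was found in 11 of 345 clones (3.19%, exact 95% interval 1.60% to 5.63%). That share was 3.04-fold the M-MZL BC floor of 3 clones over both animals (1.05%), with counting error in the 11 clones left out. In CD11c+ MBC 2 IGHV3S51 was found in 16 of 543 clones (2.95%, 2.81-fold the same floor, with the same limit). In M-MBC 1 it was found in 13 of 607 and in CD11c+ MBC 1 in 17 of 838. Both carriers had it, at 5.13% and 2.19% of C-MBC 1 clones and 2.27% and 3.16% of CD11c+ MBC 2 clones. IGHV3-124 was at 6.86% of M-MBC 1 clones in female 3, 2.91% in male 1 and 0.706% in female 1. It was found in 39 of 1854 M-MBC 1 clones and in 1 of 869 of C-MBC 1, a ratio of 18.3 with an exact 95% interval from 3.09 to 740.3 that covers counting error only. Female 3 held 26 of the 39 M-MBC 1 clones and the 1 clone of C-MBC 1.

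Class-switched clones, with an IgG, IgA or IgE constant gene, used the family less in most animals. IGHV3 clones were 28.4%, 28.8%, 32.9% and 26.7% of switched clones in females 1 to 4 and 31.3% and 35.7% in males 1 and 2, against 37.0%, 34.2%, 32.1%, 39.3%, 37.4% and 36.4% of unswitched clones. Switched was lower in 5 of 6 animals, female 3 being the exception, with no test of the sum. Class goes with subtype, and the part of subtype here was not tested. Among mostly unswitched subtypes the mean IGHV3 share was 27.9% in Naive B cells 1 and 46.4% in M-MZL BC. In the mostly switched CD11c+ MBC 2 and C-MBC 1 it was 31.7% and 32.3%, above the naive mean. Gene by gene, 0 of 26 IGHV3 genes were called by edgeR, with 2.78% of 72 IGHV genes called in all, and DESeq2 called 0, while 4 were called with TMM scaling. An unadjusted p under 0.05 was reached by 7 of the 26 IGHV3 genes and by 14 of all 72. IGHV3-116 was at 2.19% ± 1.66 of switched and 3.50% ± 2.20 of unswitched clones, lower in 6 of 6 animals (log2 -0.72 ± 0.29, adjusted p 0.17). IGHV3-134, by contrast, was at 0.728% ± 0.837 and 0.302% ± 0.316 (log2 1.35 ± 0.49, adjusted p 0.084), and 53.2% of its clones were switched, as were 48.4% of IGHV3S51 clones and 5.1% of IGHV3-37 clones.

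Light chain partners were compared in the 3275 IGHV3 clones of cells with 1 light chain. IGHV3 clones made up 36%, 34.9%, 32.9% and 39.5% of kappa clones in females 1 to 4 and 39.8% and 36.2% in males 1 and 2, and 34.2%, 31.1%, 31.8%, 32.6%, 34.6% and 36.2% of lambda clones. None of 25 IGHV3 genes was called, with 8.45% of 71 IGHV genes called in all. An unadjusted p under 0.05 was reached by 2 of the 25 and by 10 of all 71. IGHV3-116 was at 3.80% ± 2.47 of kappa and 2.62% ± 1.93 of lambda clones, higher in kappa in 6 of 6 animals and just outside the threshold (log2 0.44 ± 0.16, adjusted p 0.051 by edgeR). IGHV3 clones were paired with 98 light chain V genes, led by IGKV1-25 with 174 clones (5.31%).

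Within subtypes, the mean kappa share of IGHV3 clones was highest in M-MZL BC. Kappa made up 53.8%, 61.8%, 66.7% and 62.3% of M-MZL BC IGHV3 clones in females 1 to 4 and 54.6% and 56.0% in males 1 and 2. In Naive B cells 1 it was 52.3%, 52.9%, 53.2% and 32% in the females and 39.2% and 42.3% in the males. Each of the 6 M-MZL BC values lay above all naive ones, a mean difference of 13.9 percentage points ± 3.88 (SE). The exact two-sided sign-flip permutation test gave p = 0.03125, the smallest p that 6 animals allow, and 0.25 after adjustment over 8 subtypes. No subtype passed after adjustment, but with 5 or 6 animals each none could have, whatever the values. The clones of the other IGHV families averaged 54.0% ± 9.49 kappa in M-MZL BC and 43.8% ± 5.05 in Naive B cells 1. In the other 7 subtypes the difference for IGHV3 ran from -4.77 points in CD11c+ MBC 2 to 8.44 in M-MBC 2.

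The mean CDR3 length of IGHV3 clones was lowest in Activated B cells, M-MZL BC and M-MBC 2. Lengths are those of the deposited amino acid sequences. The mean in M-MZL BC was 14.9, 14.9, 14.5 and 14.1 amino acids in females 1 to 4 and 14.8 and 15.2 in males 1 and 2, against 16.7, 16.4, 15.9, 16.4, 16.6 and 17.2 in Naive B cells 1. The 2 groups did not overlap, with a difference of -1.78 ± 0.13 (SE) and an exact permutation p of 0.03125 (0.17 adjusted). Here too, so few animals allowed no subtype an adjusted p under 0.05. Activated B cells differed by -1.84 ± 0.13 in 5 of 5 animals (exact p = 0.0625, the smallest for 5), and M-MBC 2 by -1.43 ± 0.34, shorter in 5 of 6. The other 5 subtypes differed by -0.69 to -0.36. Clones of the other IGHV families also averaged less in M-MZL BC, 15.1 ± 0.31 against 16.6 ± 0.31 in Naive B cells 1.

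Single genes differed in CDR3 length too. Over unswitched clones, 2 of 16 IGHV3 genes tested were called against the other IGHV genes, with 17.1% of 41 IGHV genes called in all (limma). IGHV3-54 clones averaged 17.46, 15.96, 18.7 and 16.1 amino acids in females 1 to 4 and 17.0 in male 2, longer than the other genes in 5 of 5 animals (1.25 ± 0.28 SE, adjusted p 0.022). IGHV3-30 clones averaged 15.1, 14.7, 13.50, 15.3, 12.1 and 13.9 in females 1 to 4 and males 1 and 2, shorter in 5 of 6 (-1.43 ± 0.35, adjusted p 0.022). IGHJ4 is a J segment with a short coding end, and IGHV3 clones that used it averaged 14.9 amino acids against 17.6 with IGHJ6. With switched clones included, IGHJ4 was used by 72.9% of IGHV3-30, 48.1% of IGHV3-54 and 60% of all IGHV3 clones. The part of the J segment or of subtype in these length differences was not tested. Without weights neither gene was called (adjusted p 0.0505 for both). The IGHV3-54 call was also lost without female 1 or female 3 (0.099 and 0.054), and that of IGHV3-30 without female 3 (0.059).

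V region divergence, the differences per 100 bases from the nearest common sequence of the gene in that animal and an estimate of somatic mutation, was near 0 in naive cells. In Naive B cells 1 it was 0.048, 0.195, 0.023, 0.030 and 0.025 in females 1 to 3 and males 1 and 2. In M-MZL BC it was 2.69, 2.63, 2.22, 1.92 and 2.10 in the same animals. Means over animals ran from 0.064 in Naive B cells 1 through 0.614 in M-MBC 1, 1.02 in CD11c+ MBC 1, 2.16 in M-MBC 2 and 2.31 in M-MZL BC to 3.29 in Activated B cells, 4.23 in CD11c+ MBC 2, 4.59 in C-MBC 2 and 4.89 in C-MBC 1. Every animal measured was above its naive value in each of the 8 subtypes (exact permutation p = 0.0625 with 5 animals and 0.125 with 4, the smallest each allows, and 0.083 or 0.125 adjusted). C-MBC 1 and C-MBC 2 ranges overlap, as do those of M-MBC 2 and M-MZL BC.

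Differences were not spread evenly along the gene. In M-MZL BC, CDR2 held 7.82 ± 1.98 differences per 100 bases and CDR1 3.43 ± 0.76, against 1.15 ± 0.24 in the first framework region, 2.56 ± 0.49 in the second and 2.31 ± 0.38 in the third (SD, n = 6). CDR2 was above the second framework region in 6 of 6 animals in M-MZL BC and in 5 of 5 in C-MBC 1, where the means were 11.6 and 4.40. In Naive B cells 1 CDR2 was above it in 2 of 5 animals, at means of 0.519 and 0.363. The region values are not a breakdown of the whole V region values above. They rest on fewer clones, 288 against 372 in Naive B cells 1. The lowest naive region mean, 0.080 in the third framework region, already lay above the whole V region mean of 0.064. The source of this gap was not tested, and the naive region values are limited by it.

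**Figure D5:**
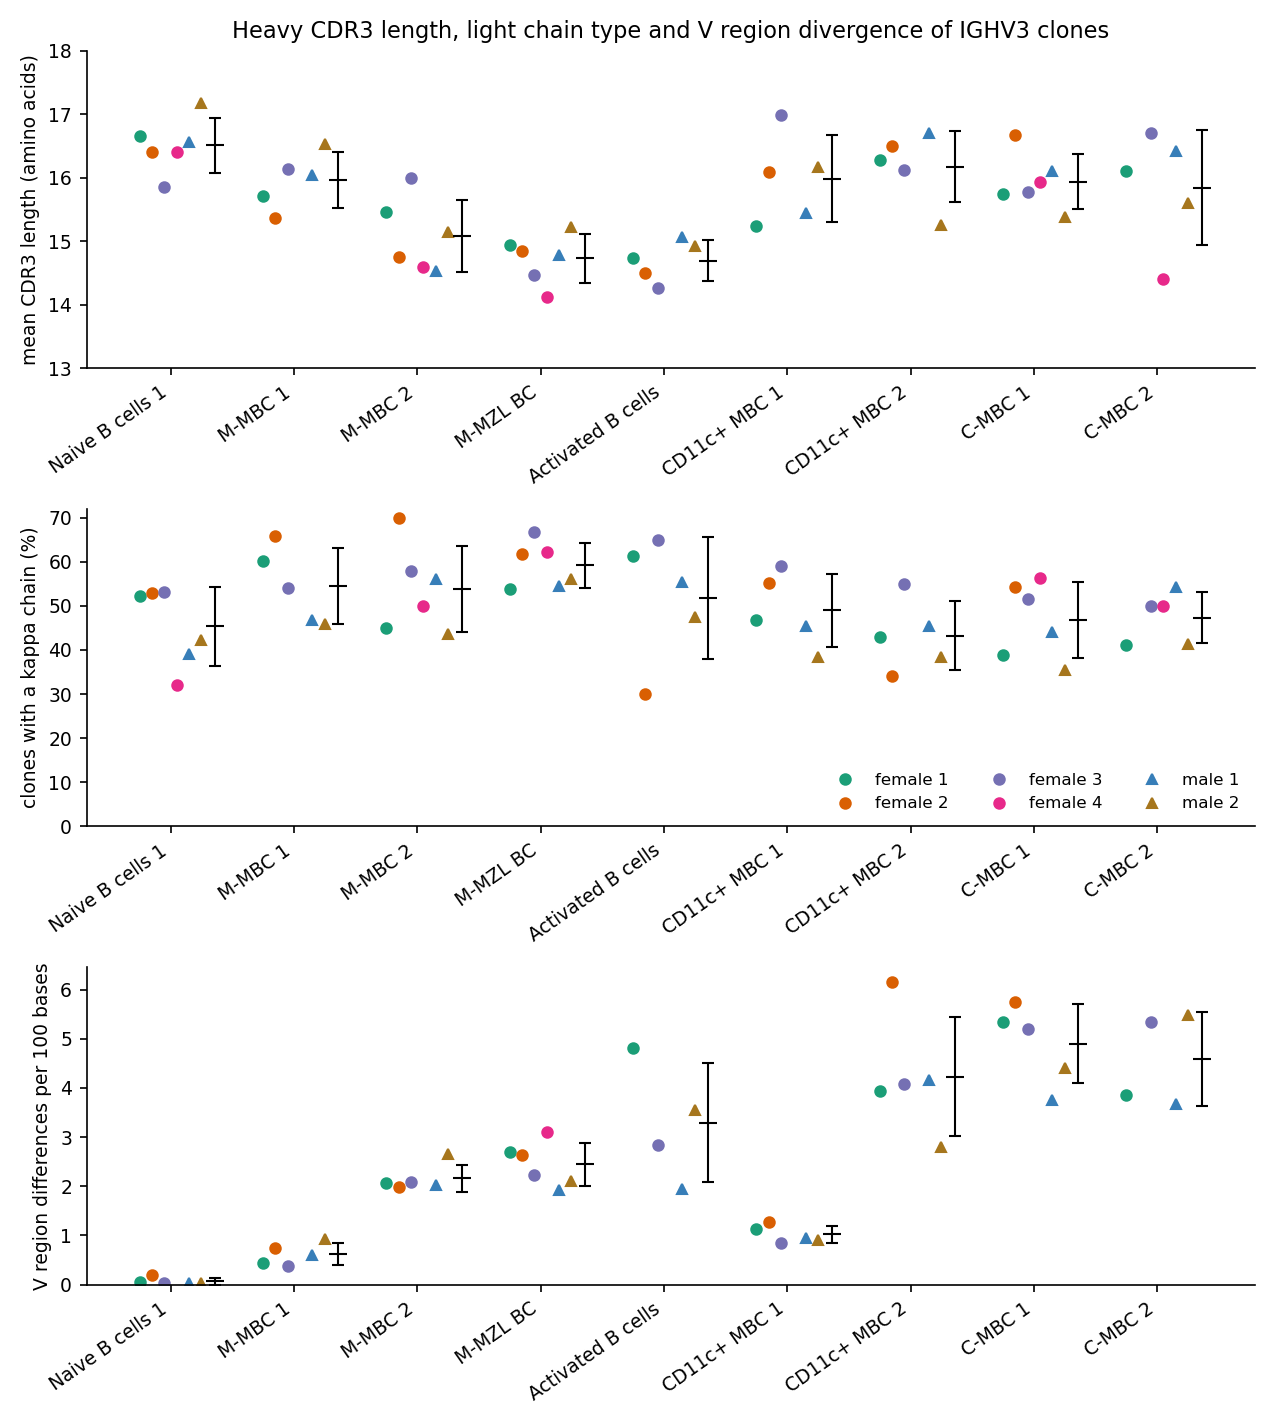
Mean CDR3 length in amino acids (top), percent of clones with a kappa light chain (middle) and V region differences per 100 bases (bottom) of IGHV3 clones in 9 subtypes, 1 point per animal with at least 10 clones, circles for females and triangles for males, with the mean and SD beside them. M-MZL BC points lie below all naive points in the top panel and above them in the middle and bottom panels.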

How the data were processed

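Libraries were made with 10x Chromium 5' chemistry, per the labels' protocols. The submitters' processing notes name Seurat 5.0.1, Cell Ranger 9.0.1 and R 4.3.1. Neither the genome build nor the immunoglobulin reference is given in the sources used here. The series' authors deposited raw UMI counts per gene and cell, a cell table with their subtype names, and contig tables which, per the file headers, hold counts of UMIs and reads, gene names and region sequences. For all 13849 cells the column sum of the count table was the same as the UMI total listed. Doublet calls were taken as deposited, and cells with a second productive heavy chain (348 barcodes) were left out.

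Clones were counted per gene, animal and subtype. Sums of at least 30 clones, in subtypes with at least 3 such animals, and genes with at least 20 clones over the sums were fitted with edgeR 4.0.16 under R 4.3.3 (quasi-likelihood F test, all clones as library size, no TMM). The animal was a block, because subtypes come from the same animals. CDR3 length by gene (at least 5 clones in at least 4 animals) was tested with limma 3.58.1, weighted by clone numbers. Single values (at least 10 clones per animal) were tested by exact sign flips. A common sequence was one of at least 3 unswitched clones. DESeq2 1.42.0 was an alternative, and pairs of subtypes, the nearest common sequence as gene name and a fixed window of 270 bases were alternatives chosen after seeing the data. The scripts were tested on simulated data. Spread between animals is biological, with the technical noise of each library in it, and p-values over clones of so few animals are limited by their number. A gene found in 0 clones may have been missed.

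Named genes were the 10 most used IGHV3 genes and every IGHV3 gene called against Naive B cells 1 (up to 4 per direction and comparison) or for class, light chain or CDR3 length (up to 3 per direction). The members, the marker lists and the rules were chosen with earlier results of these data known.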

Additional observations from a re-analysis of the deposited data

Results flagged for a closer look

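In 6 of 64 groups of 4 to 6 animals an animal stood far from the others, where chance alone flags about 1 in 20. IGHV3-38 was at 0.826% of Naive B cells 1 clones in female 1, above the other animals. The IGHV3 share of Activated B cells was lowest in female 2, at 21.7%, and that of CD11c+ MBC 2 in female 4, at 21.2%. V region divergence of IGHV3 clones was highest in male 2 in M-MBC 2, at 2.65 differences per 100 bases, and in female 2 in Naive B cells 1, at 0.195. IGHV3-100 was highest in female 3, at 2.05% of all clones.

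IGHV3 heavy chains also occurred outside the annotated B cells. Of the barcodes with 1 productive heavy chain, 1835 were not in the cell table, and 678 of these (36.9%) carried an IGHV3 chain, against 34.8% of the annotated B cells. A further 77 IGHV3 chains were in the 287 such cells that the authors named Contamination. Neither set entered a comparison.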

How the results depend on the processing

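IGHV3-116 in M-MZL BC kept its direction and its call in all 22 alternatives (log2 1.83 to 2.35, adjusted p 1.4e-09 to 0.047), the Activated B cells call was kept in 21 of 22 and that in M-MBC 2 in 19 of 22, and no named gene reversed. Without the replicate block the last 2 were lost (adjusted p 0.14 and 0.28). Calls by subtype, 25 of which 9 IGHV3, became 7 and 3 with DESeq2, 3 and 1 with no replicate block, 7 and 5 in batch 2 alone, 7 and 3 in batch 1 alone, 14 and 5 with sums of 60 clones or more, 13 and 5 with unswitched clones alone, 8 and 3 with clones within 3 differences per 100 bases of a common sequence (an alternative chosen after seeing the data), and 7 to 22 and 3 to 8 leaving out 1 animal (12 and 5 without female 1, 7 and 3 without male 2). TMM left 5 IGHV3 calls. For any difference, 13 and 7 became 5 and 1 with DESeq2, 2 and 1 with no replicate block, 5 and 3 in batch 2, 3 and 1 in batch 1, 4 and 1 with unswitched clones, 5 and 1 near common sequences and 6 to 13 and 4 to 6 leaving out 1 animal, with 4 IGHV3 genes under TMM. For class, 2 and 0 became 6 and 4 with TMM, 0 calls with DESeq2, no filter, no replicate block and in either batch, 0 to 2 leaving out 1 animal, and 1 IGHV3 call with contigs of 3 UMIs or more. For light chain, 6 and 0 became 1 call with DESeq2, 0 with no replicate block, in batch 1 and in Naive B cells 1, 3 in batch 2 and 0 to 4 leaving out 1 animal, and 1 IGHV3 call with TMM, genes of 50 clones or more, cells, or clones by CDR3 amino acids. For CDR3 length, 7 and 2 became 0 and 0 in Naive B cells 1 alone, with no weights or with at least 10 clones, and 0 to 11 and 0 to 5 leaving out 1 animal. The causes were not tested.

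With no replicate block, the permutation p passed the threshold for CDR3 length in Activated B cells (-1.84), M-MZL BC (-1.78) and M-MBC 2 (-1.43), for kappa in M-MZL BC (13.9), and for divergence in the 8 subtypes (0.55 in M-MBC 1, 2.10 in M-MBC 2, 2.25 in M-MZL BC, 3.26 in Activated B cells, 0.958 in CD11c+ MBC 1, 4.16 in CD11c+ MBC 2, 4.83 in C-MBC 1 and 4.56 in C-MBC 2). Values that changed sign were CDR3 length in CD11c+ MBC 2 without male 2 (0.0318, range -0.52 to 0.0318 leaving out 1 animal), and kappa in M-MBC 2 averaged within genes (-3.56), in C-MBC 1 with at least 20 clones (-4.31) or leaving out 1 animal (-3.18 to 4.37), in C-MBC 2 (-0.0766 to 7.21, the lowest without female 4) and in CD11c+ MBC 1 (-0.36 to 2.56), with -0.22 without female 3. Depth limits the rare genes, since most clones are 1 cell and the calls besides IGHV3-116 rest on few clones.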

Other observations

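Of the 3562 IGHV3 clones, 53 held more than 1 cell, 50 of them 2 cells and 3 of them 3. Of these 53, 28 lay in more than 1 subtype. M-MBC 2 was part of 14 of these, M-MZL BC of 6 and Naive B cells 1 of 0, and the most frequent pair was C-MBC 1 with M-MBC 2, in 5 clones. No heavy chain with the same V gene, J gene and CDR3 nucleotides was found in more than 1 animal (0 of the IGHV3 chains).

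The J segment and the light chain families also varied. IGHJ4 was used by 58.4% ± 4.83 (SD, n = 6) of the IGHV3 clones of Naive B cells 1, 64.3% ± 6.00 of M-MZL BC (n = 6) and 68.4% ± 8.22 of Activated B cells (n = 5). Of the IGHV3 clones with 1 light chain, 12.8% carried an IGKV2 chain and 9.99% an IGLV1 chain, against 9.84% and 14.5% of the clones of the other IGHV families. IGKV1 was used about alike, at 29.3% and 30.9%. These shares pool clones over animals and were not tested.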
